A study of Mus musculus with 4 samples.

Results

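The 10 genes described here belong to the FGF-ERK pathway and were followed by name through mouse embryonic stem cells (ESCs): the ligand gene Fgf4, the receptor gene Fgfr1, the phosphatase genes Dusp4 and Dusp6, the inhibitor genes Spry2, Spry4, Spred1 and Spred2, and the transcription factor genes Etv4 and Etv5. All 10 were found among the 14099 named rows of each table, each in a row of its own that was joined with no other symbol. Poly-dT-selected RNA had been sequenced from 4 libraries, of which 2 carry the label wild type (WT) and 2 the label Naa10-KO, for knockout; Naa10 encodes the catalytic subunit of the N-terminal acetyltransferase NatA. The lines were F1 hybrids derived from the inner cell mass of blastocysts of Naa10-/X C57BL/6 females and JF1 males without the deletion. The WT line or lines came from littermates, and the deleted part of Naa10 is not stated. All 4 libraries came from cells kept in N2B27 medium with the Mek inhibitor PD325901, the Gsk3 inhibitor Chir99021 and LIF, for 5 passages on irradiated mouse embryonic fibroblast (MEF) feeders and then 5 without them. No library without the Mek inhibitor is analysed here, so the effect of the inhibitor on these genes was not measured. The labels call the libraries biological replicates without saying whether they were separate lines or cultures, and p-values cover the spread between these libraries only.

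Fgf4 is secreted by pluripotent cells and acts through Fgfr1 and its relatives, which pass the signal through Ras and Raf to the kinases Mek and Erk. Active Erk turns on genes that damp the same pathway. Sprouty and Spred proteins act upstream at Ras and Raf, Dusp4 removes phosphate from Erk in the nucleus and Dusp6 does so in the cytoplasm, and Etv4 and Etv5 are ETS transcription factors induced by the signal. In ESCs the pathway promotes the exit from naive pluripotency, which is why the medium blocks Mek. RNAs of genes that Erk induces, such as the Sprouty, Dusp and Etv genes, are widely used as a readout of Erk output.

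Expression is given in RPKM (reads per kilobase of transcript, for a fixed number of mapped reads), so levels can be compared between genes per length. From the steps between low values, library totals were estimated at 50800000 and 51900000 fragments for the WT libraries and at 74300000 and 85400000 for Naa10-KO. At these totals the members had an estimated 485 to 64500 fragments per library, and counting alone gave an estimated error of at most 4.5% of a value. The total of WT replicate 2 was hardly better supported than the next best one, so these figures are rough. The row that joins Naa10 with its neighbour Renbp stood at 105 and 106 RPKM in the WT pair, against 28.9 and 34.4 RPKM in the Naa10-KO pair, with both Naa10-KO libraries below both WT libraries; the joined row does not tell the genes apart. The pluripotency gene Pou5f1 was at 808 RPKM or more in every library. The Naa10-KO libraries differed from each other far more than the WT libraries did, with a median absolute log2 difference of 0.25 over all 11912 tested rows against 0.054 within WT. Markers of fibroblasts, the feeder cell type, stood apart in Naa10-KO replicate 1. There the 22 rows of the list summed to 666 RPKM, while the sum was 194 and 198 RPKM in WT, and 141 in the other Naa10-KO library. Much of the 666 RPKM came from the contractile genes Tagln, at 192 RPKM, and Acta2, at 132 RPKM. In that library 19 of the 22 rows were above both WT libraries and 2 were below both, against 38.3% and 54.6% of all tested rows. In bulk RNA, a different share of a cell type and a different amount of RNA per cell cannot be told apart.

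Across the 10 genes, none passed the test between Naa10-KO and WT, while Etv5, Dusp4 and Dusp6 stood highest relative to WT with both Naa10-KO libraries above both WT libraries. In 6 genes both Naa10-KO values exceeded both WT values (Fgfr1, Dusp4, Dusp6, Spry2, Spred2 and Etv5), against 24.4% of all tested rows. They lay below both in 1 gene, Etv4 (34.9% of tested rows), and on opposite sides of WT in 3, Fgf4, Spry4 and Spred1 (25.3% of tested rows). The median log2 difference was 0.27, against -0.06 over all tested rows. Differences were tested with limma on log2(RPKM + 1), with Benjamini-Hochberg adjustment over all 11912 rows with no less than 1 RPKM in 2 or more libraries and a threshold of 0.05 on the adjusted p. At that threshold limma called 0 of the 10 genes, against 0.764% of all rows (0.218% as higher and 0.546% as lower). At an unadjusted p under 0.05 it took 3 of the 10, all higher; 22.1% of all rows reached that level in either direction and 8.9% as higher.

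**Figure D1:**
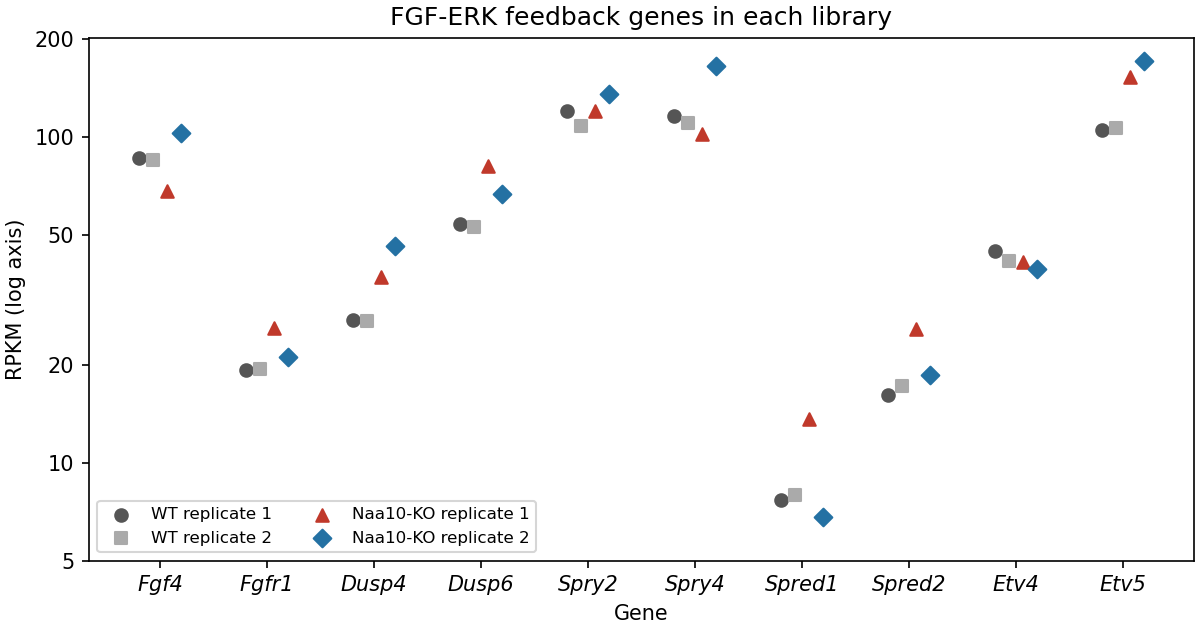
RPKM of the 10 genes in each of the 4 libraries, on a log axis, with 1 point per library. The WT points nearly coincide, Etv5, Dusp4 and Dusp6 have both Naa10-KO points above them, and the Naa10-KO points of Fgf4, Spry4 and Spred1 lie on either side of WT.

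In the WT libraries the genes spanned the middle to the upper part of the expressed range. Spry2 and Spry4 were highest, each with a WT mean of 114 RPKM, and their WT ranges overlapped. Etv5 followed at 106 RPKM, Fgf4 at 85.7, Dusp6 at 53.7, Etv4 at 43.2, Dusp4 at 27.4, Fgfr1 at 19.3, Spred2 at 16.7 and Spred1 at 7.82 RPKM. Apart from Spry2 and Spry4, no neighbours in this order overlapped within WT. Over all 4 libraries, Spry4 overlapped Etv5, Fgf4 overlapped Dusp6, Etv4 overlapped Dusp4, and Fgfr1 overlapped Spred2. The mean WT level of Spry2 was above that of 93.5% of tested rows and that of Spred1 above 43.2%. In both Naa10-KO libraries Etv5 ranked first of the 10, where Spry2 and Spry4 had ranked above it in WT.

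Fgf4, the ligand gene, stood at 86.5 and 85.0 RPKM in the WT pair, against 68.5 and 103 RPKM in the Naa10-KO pair. The Naa10-KO libraries thus lay on opposite sides of WT, and the groups overlapped. Their mean was 0.999 of the WT mean (log2 difference -0.03, SE 0.22, 95% interval -0.63 to 0.57, limma adjusted p = 0.939). The interval leaves room for a change of about 1.49-fold up or to 0.644 of WT, so an equal level is not shown. Without replicate 1 the difference was 0.26, without replicate 2 it was -0.32, and it turned to 0.03 when libraries were centred on their medians. Like Fgf4, all 15 naive pluripotency rows were lower in replicate 1 than in replicate 2. The part of these markers in the Fgf4 values was not tested.

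Fgfr1, the receptor gene, had 19.3 and 19.4 RPKM in the WT pair, against 25.9 and 21.2 RPKM in the Naa10-KO pair. Both Naa10-KO values were above both WT values, replicate 2 by 1.84 RPKM. The log2 difference was 0.27 (SE 0.13, 95% interval -0.08 to 0.62, limma adjusted p = 0.303). The antisense gene Gm16159 overlaps Fgfr1 on the opposite strand and has no row of its own; no source used here says whether reads were counted by strand, so reads of the 2 cannot be told apart.

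Of the phosphatase genes, Dusp4 stood at 27.4 and 27.3 RPKM in the WT pair, against 37.1 and 46.3 RPKM in the Naa10-KO pair. The WT pair was nearly identical, and the nearer Naa10-KO library was 9.75 RPKM above it. This was 1.52-fold of WT (log2 difference 0.58, SE 0.13, 95% interval 0.21 to 0.95; limma unadjusted p = 0.0121, adjusted p = 0.142). Dusp6 had 54.3 and 53.0 RPKM in the WT pair, against 81.4 and 66.9 RPKM in the Naa10-KO pair. The groups were apart by 12.5 RPKM, and here replicate 1 was the higher of the Naa10-KO libraries, where for Dusp4 it was replicate 2. Dusp6 was at 1.38-fold of WT (log2 difference 0.45, SE 0.12, 95% interval 0.12 to 0.79; limma unadjusted p = 0.0203, adjusted p = 0.160).

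The Sprouty genes had the highest levels of the inhibitors and small or split differences. Spry2 had 120 and 108 RPKM in the WT pair, against 120 and 136 RPKM in the Naa10-KO pair. Naa10-KO replicate 1 exceeded the higher WT library by 0.437 RPKM, less than the distance between the WT libraries. The log2 difference of Spry2 was 0.17 (SE 0.10, 95% interval -0.12 to 0.45, limma adjusted p = 0.400). Spry4 had 116 and 111 RPKM in the WT pair, against 102 and 166 RPKM in the Naa10-KO pair. Replicate 1 was below both WT libraries and replicate 2 was 1.46-fold of the WT mean, and the 95% interval ran from -0.52 to 0.91 (log2 difference 0.19, SE 0.26, adjusted p = 0.672). As for Fgf4, the part of the naive pluripotency markers in the Spry4 values was not tested. On the annotated opposite strand of Spry4 lie the small RNA genes Gm27369 and Gm27804, which have no rows of their own.

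The Spred genes, whose products hold back Raf activation with the help of neurofibromin, were the lowest of the 10 and were high in Naa10-KO replicate 1 alone or mainly. Spred1 stood at 7.70 and 7.95 RPKM in the WT pair, against 13.6 and 6.80 RPKM in the Naa10-KO pair. It was thus 1.74-fold of WT in replicate 1 and 0.869 of WT in replicate 2, the widest gap between the Naa10-KO libraries among the 10 genes (2.00-fold; log2 difference from WT 0.28, SE 0.34, 95% interval -0.67 to 1.22, limma adjusted p = 0.650). Spred2 had 16.2 and 17.2 RPKM in the WT pair, against 25.7 and 18.6 RPKM in the Naa10-KO pair. Replicate 1 was 1.54-fold of WT and replicate 2 was 1.11-fold (log2 difference 0.37, SE 0.18, 95% interval -0.14 to 0.87, adjusted p = 0.316). Replicate 1 is also the library with the high fibroblast markers, and the part of these markers in the Spred values was not tested.

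The transcription factor genes Etv4 and Etv5, members of the PEA3 group of ETS factors, stood on different sides of WT. Etv5 stood at 105 and 107 RPKM in the WT pair, against 153 and 172 RPKM in the Naa10-KO pair. Both Naa10-KO libraries were at least 46.0 RPKM above WT, and Etv5 had the lowest p of the 10 genes, at 1.53-fold (log2 difference 0.61, SE 0.09, 95% interval 0.37 to 0.85; limma unadjusted p = 0.0022, adjusted p = 0.0964). Etv4 had 44.7 and 41.7 RPKM in the WT pair, against 41.3 and 39.3 RPKM in the Naa10-KO pair. Both Naa10-KO libraries were below both WT libraries, the nearer by 0.413 RPKM, less than the WT libraries differed (log2 difference -0.10, SE 0.08, 95% interval -0.33 to 0.13, limma adjusted p = 0.510).

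**Figure D2:**
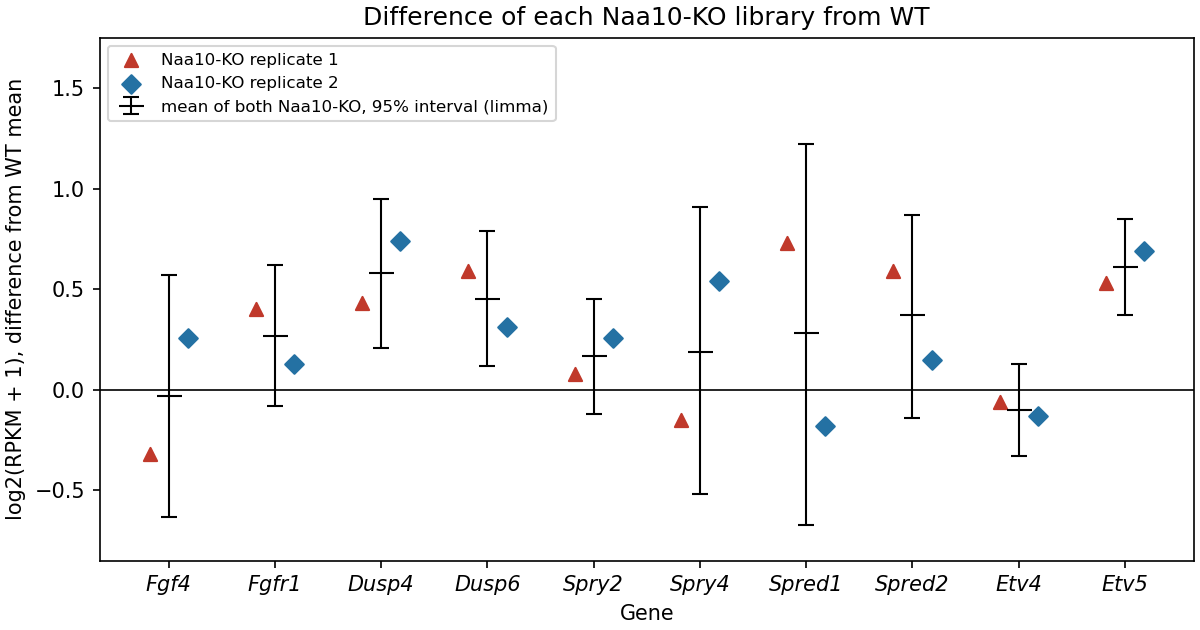
Difference of each Naa10-KO library from the WT mean on the log2(RPKM + 1) scale, with triangles for replicate 1 and diamonds for replicate 2. Bars show the limma estimate with its 95% interval; the intervals of Dusp4, Dusp6 and Etv5 lie above 0 before adjustment over all genes, and those of the other 7 genes include 0.

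Ratios of related genes within a library do not depend on how libraries are scaled. Etv5 was at 2.35 and 2.57 times Etv4 in WT and at 3.70 and 4.38 times in Naa10-KO, so the groups did not overlap. With 2 libraries against 2, the exact two-sided permutation test cannot go below p = 0.333, which is what this ratio gave (adjusted p = 1 over the 4 ratios compared). The other 3 ratios had WT between the Naa10-KO libraries. Dusp6 was at 1.98 and 1.94 times Dusp4 in WT and at 2.19 and 1.44 times in Naa10-KO. Spry4 was at 0.970 and 1.03 times Spry2 in WT against 0.849 and 1.22, and Spred2 at 2.11 and 2.16 times Spred1 against 1.89 and 2.73.

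**Figure D3:**
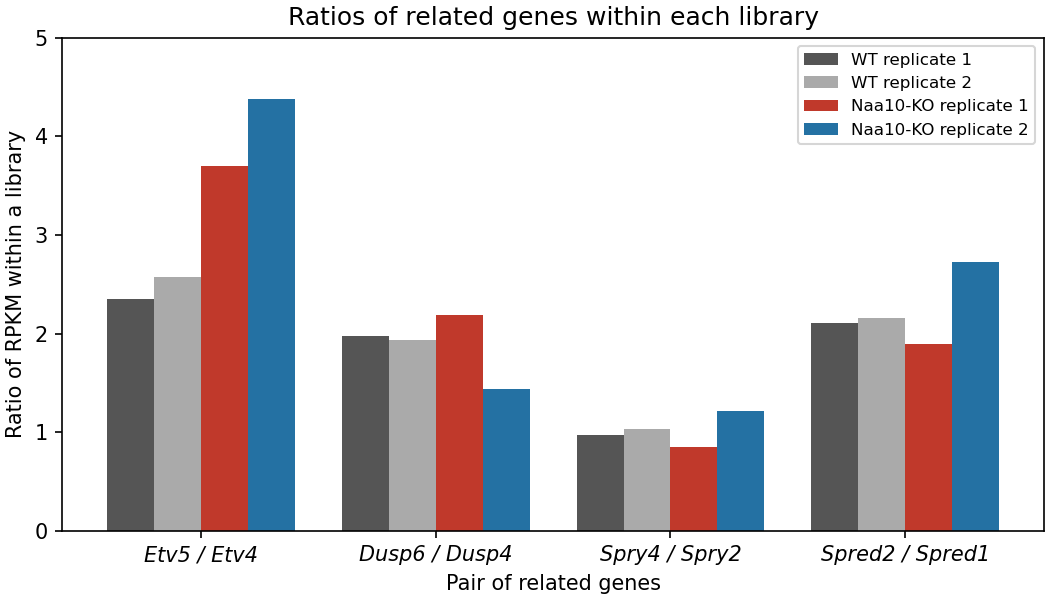
Ratio of RPKM between related genes within each of the 4 libraries, with 1 bar per library. The Etv5 to Etv4 ratio is higher in both Naa10-KO libraries (3.70 and 4.38) than in both WT libraries (2.35 and 2.57), and for the other 3 pairs the WT bars lie between the Naa10-KO bars.

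Etv5 and Dusp6, which stood above WT in both Naa10-KO libraries, are, like Etv4, known targets of Capicua, a repressor that Erk signalling inactivates. Upstream sequences were searched for that reason. Capicua binds the letters TGAATGAA or TGAATGGA. The RefSeq promoter table (build GRCm38.p6, another build than that of the deposited values) held 7 windows for 6 of the 10 genes, Fgf4, Dusp6, Spry2, Spred1, Spred2 and Etv5, the last with 2 start sites 1202 bases apart, the downstream one within the first intron. In the 250 bases before the start, on either strand, neither TGAATGAA nor TGAATGGA was found in the 7 windows. These forms occur in 1.08% and 1.01% of all 32851 windows of that length. Their first 6 letters, TGAATG, a search chosen after the windows were seen, occurred in the Dusp6 window and in that of the downstream Etv5 start, against 10.9% of all windows. Only these windows are printed below, so they were picked by the match. The window of the upstream Etv5 start had no match and is not shown. The ETS letters CCGGAAGT, searched the same way, were in 0 of the 7 windows and in 2.88% of all. Both stretches are given 5′ to 3′ on the strand of the gene, ending at the base before the start, with TGAATG or its reverse complement CATTCA in capitals; Dusp6 is chr10:99262981-99263230 on the plus strand and Etv5 chr16:22438369-22438618 on the minus strand.
Dusp6: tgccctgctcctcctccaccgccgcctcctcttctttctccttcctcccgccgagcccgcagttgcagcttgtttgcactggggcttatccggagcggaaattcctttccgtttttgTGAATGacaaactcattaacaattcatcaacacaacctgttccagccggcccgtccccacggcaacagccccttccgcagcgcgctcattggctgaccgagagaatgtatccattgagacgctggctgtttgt
Etv5, downstream start: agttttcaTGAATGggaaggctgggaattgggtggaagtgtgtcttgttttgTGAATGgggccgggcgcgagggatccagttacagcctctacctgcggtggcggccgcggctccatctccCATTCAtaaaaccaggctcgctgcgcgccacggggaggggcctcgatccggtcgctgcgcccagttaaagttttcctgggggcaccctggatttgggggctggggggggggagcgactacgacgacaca
The Dusp6 window holds the letters once, beginning 133 bases before the start. The Etv5 window holds them 3 times, beginning 242, 198 and 129 bases before the start, the last on the reverse strand. These are letter matches only, and no binding was measured in these cells.

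The Naa10-KO libraries divided the 10 genes evenly. Replicate 1 was the higher library for Fgfr1, Dusp6, Spred1, Spred2 and Etv4, and replicate 2 for Fgf4, Dusp4, Spry2, Spry4 and Etv5; of all tested rows, 45.3% were higher in replicate 1. Measured against WT, replicate 1 exceeded both WT libraries in 7 genes and was below both in 3, against 38.3% and 54.6% of tested rows. Replicate 2 lay above both in 8 and below both in 2, against 41.8% and 48.3%. The median log2 difference from WT was 0.42 in replicate 1 and 0.26 in replicate 2, where all tested rows had -0.08 and -0.02. Within the WT pair the median absolute log2 difference of the 10 genes was 0.037, and within the Naa10-KO pair it was 0.30.

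The fibroblast and naive pluripotency marker lists differed between the same libraries in 1 direction throughout. All 22 tested fibroblast rows were higher in Naa10-KO replicate 1 than in replicate 2 (45.3% of all tested rows), by a median of 1.61 on the log2 scale. In 17 of them the Naa10-KO libraries were on opposite sides of WT (25.3% of all tested rows). All 15 naive pluripotency rows were lower in replicate 1 than in replicate 2, by a median of -0.76. Of these 15 rows, replicate 1 was below both WT libraries in 10 and above both in 5 (54.6% and 38.3% of all tested rows). Replicate 2 was above both in 13 and below both in 1 (41.8% and 48.3%). The 10 FGF-ERK genes had a median difference of -0.05 between these libraries and ran from -0.70 (Spry4) to 0.91 (Spred1). No fibroblast row was at 0 in all libraries, and the part of either list in the values of the 10 genes was not tested. In Naa10-KO replicate 2, the summed fibroblast markers were below both WT libraries, and most naive pluripotency rows were above both. There Etv5 was at 1.62-fold, Dusp4 at 1.69-fold and Dusp6 at 1.25-fold of the WT mean. In replicate 1 these were 1.44-fold, 1.36-fold and 1.52-fold.

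**Figure D4:**
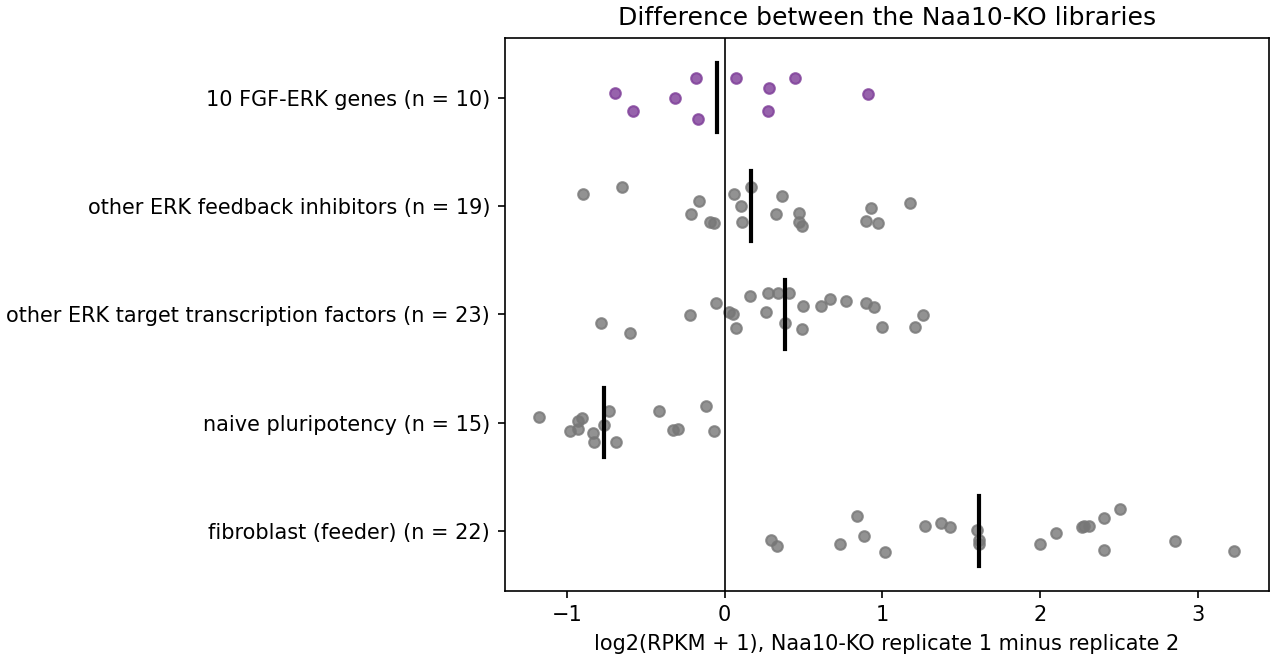
Naa10-KO replicate 1 minus replicate 2 on the log2(RPKM + 1) scale, with 1 point per tested row and a bar at the median of each list. The 10 FGF-ERK genes scatter around 0 (median -0.05), all 15 naive pluripotency rows lie below 0 and all 22 fibroblast rows above 0.

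The rest of the pathway was read from lists of its parts. Of 26 other genes for FGF ligands, receptors and binding proteins, 13 rows were tested, and limma called 0 of them (4 at an unadjusted p under 0.05, a level that 22.1% of all rows reached). In 6 rows both Naa10-KO values were above WT and in 3 both were below (24.4% and 34.9% of all rows). The lowest p of the list was in a higher row, which joins Dmtn and Fgf17 and does not tell them apart. It had 41.1 and 40.7 RPKM in the WT pair, against 63.6 and 60.8 RPKM in the Naa10-KO pair (log2 difference 0.59, limma adjusted p = 0.0841). The largest differences were in low rows. Fgf8, a ligand gene of the early embryo, had 2.32 and 1.90 RPKM in the WT pair, against 7.18 and 4.06 RPKM in the Naa10-KO pair (log2 difference 1.05, adjusted p = 0.160). Fgf13, which encodes a FGF homologous factor that is not secreted, had 2.65 and 2.25 RPKM against 3.89 and 6.13, and Fgf5, a marker of the formative state, 2.76 and 2.78 RPKM against 7.32 and 3.60. The receptor rows Fgfr2, Fgfr3, Fgfr4 and Fgfrl1 were at 4.33 RPKM or less in each WT library, far below Fgfr1.

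The Ras-MAP kinase cascade itself had a median log2 difference of 0.04. All 31 of its rows were tested, with 0 called by limma and 4 at an unadjusted p under 0.05 (22.1% of all rows). Both Naa10-KO libraries were above both WT libraries in 8 rows and below in 9 (24.4% and 34.9% of all rows). The largest differences were in kinases that Erk activates and that phosphorylate the cap-binding factor eIF4E. Mknk2 had 59.4 and 58.6 RPKM in the WT pair, against 33.1 and 36.6 RPKM in the Naa10-KO pair (log2 difference -0.75, limma adjusted p = 0.0803), and Mknk1 had 10.0 and 10.0 RPKM against 4.79 and 7.67. The joined row of Pygo2 and the adaptor gene Shc1 had 60.9 and 54.7 RPKM against 47.0 and 40.6.

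Feedback inhibitors outside the 10 genes had a median log2 difference of 0.28; taken by library, the median was 0.41 for replicate 1 but 0.04 for replicate 2. Among the 19 rows tested, 17 had a log2 difference above 0, against 42.7% of all rows. Both Naa10-KO libraries were above WT in 8 rows and below in 0 (24.4% and 34.9% of all rows), and 9 rows had them on opposite sides (25.3%). In replicate 1, the library with the high fibroblast markers, 17 rows were above both WT libraries and 1 was below (38.3% and 54.6% of all rows). In replicate 2, 10 were above and 8 below (41.8% and 48.3%). The part of these markers in this list was not tested. Limma called 0 of the 19, and 4 had an unadjusted p under 0.05, where 22.1% of all rows did. Dusp5, a nuclear Erk phosphatase like Dusp4, had 38.0 and 32.8 RPKM in the WT pair, against 67.4 and 75.5 RPKM in the Naa10-KO pair (log2 difference 1.00, adjusted p = 0.0807). A replicate block with crossed numbers, added after seeing the data, put Dusp5 past the threshold (limma adjusted p = 0.0352). Dusp16 had 12.7 and 12.2 RPKM in WT, against at least 17.0 RPKM in both Naa10-KO libraries, also with the groups apart. Dusp10 had 3.16 and 3.29 RPKM in the WT pair, against 8.14 and 3.06 RPKM in the Naa10-KO pair, so that only replicate 1 was high and the log2 difference turned to -0.06 without it. Dusp16 and Dusp10 act mainly on the kinases p38 and Jnk. All 9 Dusp rows of this list, a grouping made after the values were seen, had a log2 difference above 0 (42.7% of all rows). In 4 of them both Naa10-KO libraries were above WT (24.4% of all rows). For Dusp2, Dusp8 and Dusp10, replicate 2 was below both WT libraries.

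A list of transcription factors and other targets of Erk had 23 tested rows, with 1 that rose, 1 that fell and 9 at an unadjusted p under 0.05 (22.1% of all rows). It includes rows such as Cic, the gene of Capicua, and the Elk genes, so its counts are not those of Erk-induced genes only. Junb, an AP-1 gene, rose from 41.8 and 42.0 to 114 and 119 RPKM (log2 change 1.46, SE 0.07, limma adjusted p = 0.0156). Egr1, an immediate early gene that responds to Erk through Elk factors, fell from 238 and 211 to 106 and 102 RPKM (log2 change -1.10, adjusted p = 0.0431). Fosl2, another AP-1 gene, had 3.79 and 3.56 RPKM in the WT pair, against 13.0 and 6.02 RPKM in the Naa10-KO pair (log2 difference 1.08, adjusted p = 0.213). The list's median log2 difference was 0.49, with 11 rows above and 3 below WT in both Naa10-KO libraries (24.4% and 34.9% of all rows). Of the 23 rows, 19 were higher in Naa10-KO replicate 1 than in replicate 2 (45.3% of all rows), by a median over the list of 0.38. In replicate 1, 19 rows were above both WT libraries and 4 below, against 38.3% and 54.6% of all rows. In replicate 2, 12 were above and 8 below, against 41.8% and 48.3%. The part of the high fibroblast markers of replicate 1 in this list was not tested. Neither call held without WT replicate 1 (limma adjusted p = 0.345 for Junb and 0.667 for Egr1), without WT replicate 2 (0.322 and 0.426), or in a fit without small RNA rows and rows with a 0 (0.0822 for both), where limma called 0 of 11660 rows (2626 at an unadjusted p under 0.05). Egr1 also lost its call with a replicate block (0.0697), with no filter (0.0560), with a stricter filter (0.0520) and with no variance trend (0.0740).

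Rows whose pattern over the 4 libraries was most like the median pattern of the 10 genes were Fam32a, Usp42, a deubiquitinase gene, and Ptbp1, a splicing repressor gene. Their root mean square distances from it were 0.009, 0.013 and 0.014 on the log2 scale, among 8097 rows that averaged at least 5 RPKM. Ptbp1, for example, had 390 and 386 RPKM in the WT pair, against 486 and 462 RPKM in the Naa10-KO pair. The median pattern itself was -0.15 and -0.14 in WT and 0.18 and 0.13 in Naa10-KO around its mean; it rests on only 4 libraries, and single members such as Spry4 and Spred1 depart from it.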

How the data were processed

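RNA from 2 WT and 2 Naa10-KO ESC libraries was sequenced on an Illumina HiSeq. The authors deposited 1 table of RPKM per library, per the file headers. The submitters' processing notes name the build mm9 and, as tools, Cufflinks and bedtools, with the aligner, gene annotation and use of strand not given in the sources used here. Of the rows in a table, 14099 were named, and 12937 rows with no gene name were left out. Rows were tested as deposited, joined rows once, by a two-sided limma fit (version 3.58.1, R 4.3.3) of log2(RPKM + 1) with trended variance, over the 11912 rows with no less than 1 RPKM in 2 or more libraries, which all 10 members passed. This scale understates the change of low genes. Adjusted p-values are Benjamini-Hochberg over all tested rows; list counts carry no list test. Python 3.11.15, pandas 2.3.3 and matplotlib 3.10.9 handled tables and plots. The scripts were tested on simulated data. RPKM carry no depth, so totals were estimated as the value at which low RPKM of genes with a single longer transcript, times length, came closest to whole fragments, assuming fragments of 200 nt; the best total was least distinct for WT replicate 2. Transcript lengths and overlapping genes were taken from GENCODE M21 (GRCm38), promoters from RefSeq, and no coordinates were carried between builds. Members and lists were chosen with earlier results of these data known. Named genes are the 10 members and, from each pathway list, rows past the threshold and the 3 with the largest difference. Pou5f1 and the Naa10 row check the labels. A few other rows are named to qualify a list and were chosen after their values were seen. Other scalings, pseudocounts, filters, a replicate block and leaving out each library were tried.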

Additional observations from a re-analysis of the deposited data

How the results depend on the processing

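Over 13 alternatives, 7 of the 10 genes kept the direction of their difference (Fgfr1, Dusp4, Dusp6, Spry2, Spred2, Etv4 and Etv5). Fgf4 turned to 0.03 with libraries centred on their medians. With a library left out, Fgf4 ran from -0.32 to 0.26, Spred1 from -0.18 to 0.73, Spry4 from -0.15 to 0.54 and the pathway gene Dusp10 from -0.06 to 1.11, each turning with the choice of Naa10-KO library (Fgf4, Spred1 and Dusp10 without replicate 1, Spry4 without replicate 2). With all libraries kept, no member passed in any of 9 alternatives; the adjusted p of Etv5 ran from 0.0872 to 0.190, of Dusp4 from 0.132 to 0.260 and of Dusp6 from 0.142 to 0.290. The count of members past the threshold ran from 0 to 7 with a library left out: 0 without either WT library, 5 without Naa10-KO replicate 1 and 7 without replicate 2. The lone Naa10-KO library is then assumed to vary like the WT pair, and 41.5% and 59.4% of all rows were called, so these counts say nothing particular about the members. The median log2 difference of the members stayed between 0.26 and 0.42. The number with both Naa10-KO libraries above every WT library kept was 6 wherever it was counted with both Naa10-KO libraries in. With a Naa10-KO library left out, only the other can be set against WT, and its count is given above. The count over all rows was 91, and 44 with a replicate block, 40 with no filter, 0 without small RNA rows and rows with a 0 (2626 at an unadjusted p under 0.05), 12 without WT replicate 1, 15 without WT replicate 2, and 4938 and 7081 without Naa10-KO replicates 1 and 2. The labels give both groups replicate numbers 1 and 2, but nothing says that a number marks a shared source, and deviations of same-numbered libraries correlated at -0.215 over 11912 rows. With the replicate block, 0 members passed and Etv5 had an adjusted p of 0.190. A block with crossed numbers, added after seeing the data, called 133 rows and 0 members, and put the pathway gene Dusp5 past the threshold (adjusted p 0.0352). With 2 libraries a group, the spread is estimated from few values, and the counting error given rests on estimated totals.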

Other observations

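Genes of the cell states that FGF-ERK signalling promotes were read beside the pathway. Of 12 tested rows for formative and primed pluripotency, limma called 0, and 5 had an unadjusted p under 0.05 (22.1% of all rows). The log2 difference was above 0 in 10 of the 12 (42.7% of all rows), and both Naa10-KO libraries were above WT in 6 and below in 2 (24.4% and 34.9%). The median was 0.33, against -0.06 over all rows. Primitive endoderm, the lineage that FGF signalling specifies in the blastocyst, had 8 tested rows of 13, with 0 called, 0 at an unadjusted p under 0.05 and a median of 0.18. Of its regulators and markers, 5 rows did not pass the filter on low values, Gata6, Sox17, Foxa2, Hnf4a and the joined row of Pdgfra. Gata6, for example, had 0.634 and 0.410 RPKM in the WT pair, against 0.817 and 0.650 RPKM in the Naa10-KO pair. The regulator Gata4 passed it with 1.05 and 0.775 RPKM against 0.691 and 1.40, with the Naa10-KO libraries on opposite sides of WT. Sox7 had the largest difference of the list, with 1.26 and 1.14 RPKM against 1.73 and 3.83, both Naa10-KO libraries above WT (log2 difference 0.72, limma adjusted p = 0.277). These genes were named after their values were seen.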
